A study of Mus musculus with 12 samples.

Results

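Interferon-induced genes are the messages that cells switch on when interferon binds its receptor, and 43 of them were followed here through 4 stages of granulocyte formation in mouse bone marrow. The members were named by symbol, with no cutoff on their levels. Earlier results of these data were known when they were chosen. Of the 43, 37 had an array row of their own among the 19937 genes tested. Another 5 (Isg15, Ifi47, Igtp, Irgm2 and Gbp2) lay on rows shared with a second gene, Ifi44 was named on no row, and these 6 were not analysed here. The arrays came from untreated C57BL/6 mice, with 3 arrays for each stage. LSK cells (Lin- Sca1+ cKit+) contain stem cells and early progenitors, and promyelocytes, myelocytes and mature granulocytes follow in that order. LSK cells were sorted as negative for lineage markers, whereas the 3 later stages were sorted with Gr-1, cKit, CD34 and CD16/32 after cells positive for lineage markers such as B220 and CD3, or for Sca1, were set aside. Every comparison with LSK cells is thus also one of Sca1-positive with Sca1-negative cells. The part of this gate in those differences was not tested. No group was infected or given interferon.

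Type I interferons bind the receptor made of Ifnar1 and Ifnar2, whose kinases Jak1 and Tyk2 phosphorylate signalling factors such as Stat2. Stat2 and Irf9 are parts of a complex that binds the interferon-stimulated response element (ISRE) in target promoters, while interferon gamma acts through gamma-activated sites (GAS). The products sense viral RNA, degrade it, block translation, trap budding virions or feed back on the pathway, and many cells keep a low tonic level of them without infection.

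All levels are log2 array signals and all differences are differences of log2 group means ± SE, with 3 arrays in each group. Each SE came from the limma fit, which pooled a gene's spread over all 12 arrays and drew it towards that of all genes. Calls came from the limma fit over all 19937 genes and needed both an adjusted p below 0.05 (Benjamini-Hochberg) and at least a 2-fold difference. The 3 arrays per stage are labelled as biological replicates, but separate mice are not named, and the p-values therefore reflect only how far these samples varied, some of which may be technical. A group mean at or under 4.54, the 95th percentile of the means of 1196 olfactory and vomeronasal receptor genes, is called dim. A difference measured against a dim group is not the size of a change, so it is given with a bound ("at least"), the mean of the brighter group minus that of the dim group after each dim array below 4.54 was raised to it. Of the 37 measured members, 32 lay above this level in every group and 1, Mx2, was dim in every group. The stage labels were compared with stage markers, and all 6 measured LSK markers were called lower in promyelocytes than in LSK cells. All 6 promyelocyte genes were called lower in myelocytes than in promyelocytes, and all 5 myelocyte genes were called higher in that step. Of 4 granulocyte genes, 3 were called higher in granulocytes than in myelocytes, while 1 of the 5 myelocyte genes was called lower there. Against LSK cells, only 4 of the 6 promyelocyte genes were called higher in promyelocytes. Elane and Ctsg were not, and their LSK arrays were uneven (Elane 10.54, 11.54 and 8.66, Ctsg 10.93, 11.40 and 8.09). LSK 3 was the lowest LSK array for all 6 promyelocyte genes. Because these are sorted populations measured in bulk, fewer cells with a message and less message per cell cannot be told apart.

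The promoters of the listed genes were searched for the ISRE core GAAANNGAAA and the GAS core TTCNNNGAA, on both strands, in the RefSeq windows of GRCm38.p6 that run 250 bases before to 50 bases after each annotated start. Of the 37 measured members, 28 matched an entry, and 13 of these (46.4%) held the ISRE core, against 3.89% of the 15613 tested genes with an entry and 3.44% of the 32851 promoters searched. The GAS core was present in 8 of the 28 (28.6%), against 8.99% of the tested genes. A match describes the letters of the window and does not show that a factor binds there. Windows of 60 bases are shown for members of opposite behaviour, since Oas3, Ifit3, Rsad2 and Trim30a rose towards the granulocyte, whereas Gbp3 and Bst2 fell. Gbp7 is shown because it adjoins Gbp3. Capitals mark ISRE cores, written TTTCNNTTTC where the match is on the other strand, and longer runs of capitals hold overlapping matches. In Bst2 the first ISRE core also overlaps a GAS core. The windows are chr5:120777700-120777759 for Oas3, chr19:34583365-34583424 for Ifit3, chr12:26456538-26456597 for Rsad2, chr7:104465195-104465254 for Trim30a, chr3:142559977-142560036 for Gbp3, chr3:142530258-142530317 for Gbp7 and chr8:71537565-71537624 for Bst2. They are printed 5′ to 3′ on the strand of the gene, which is the minus strand for Oas3, Rsad2, Trim30a and Bst2 and the plus strand for the others.
Oas3: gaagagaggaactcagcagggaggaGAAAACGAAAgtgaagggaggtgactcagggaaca
Ifit3: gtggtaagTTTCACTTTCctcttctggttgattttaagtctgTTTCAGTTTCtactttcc
Rsad2: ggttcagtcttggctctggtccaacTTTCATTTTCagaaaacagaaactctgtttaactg
Trim30a: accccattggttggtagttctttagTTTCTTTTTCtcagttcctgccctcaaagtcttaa
Gbp3: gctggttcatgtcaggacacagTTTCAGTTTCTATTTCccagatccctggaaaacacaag
Gbp7: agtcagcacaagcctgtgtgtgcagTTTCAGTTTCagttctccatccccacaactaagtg
Bst2: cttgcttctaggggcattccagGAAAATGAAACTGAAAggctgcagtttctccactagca

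Most members were lowest in promyelocytes and highest in granulocytes. The lowest of the 4 group means was that of promyelocytes for 26 of 37 members (70.3%), against 26.2% of all genes, and the highest was that of granulocytes for 27 (73.0%), against 46% of all genes. By the moderated F test, 36 members differed among the stages, where 54% of all genes did, and Mx2 did not (adjusted p = 0.195).

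**Figure D1:**
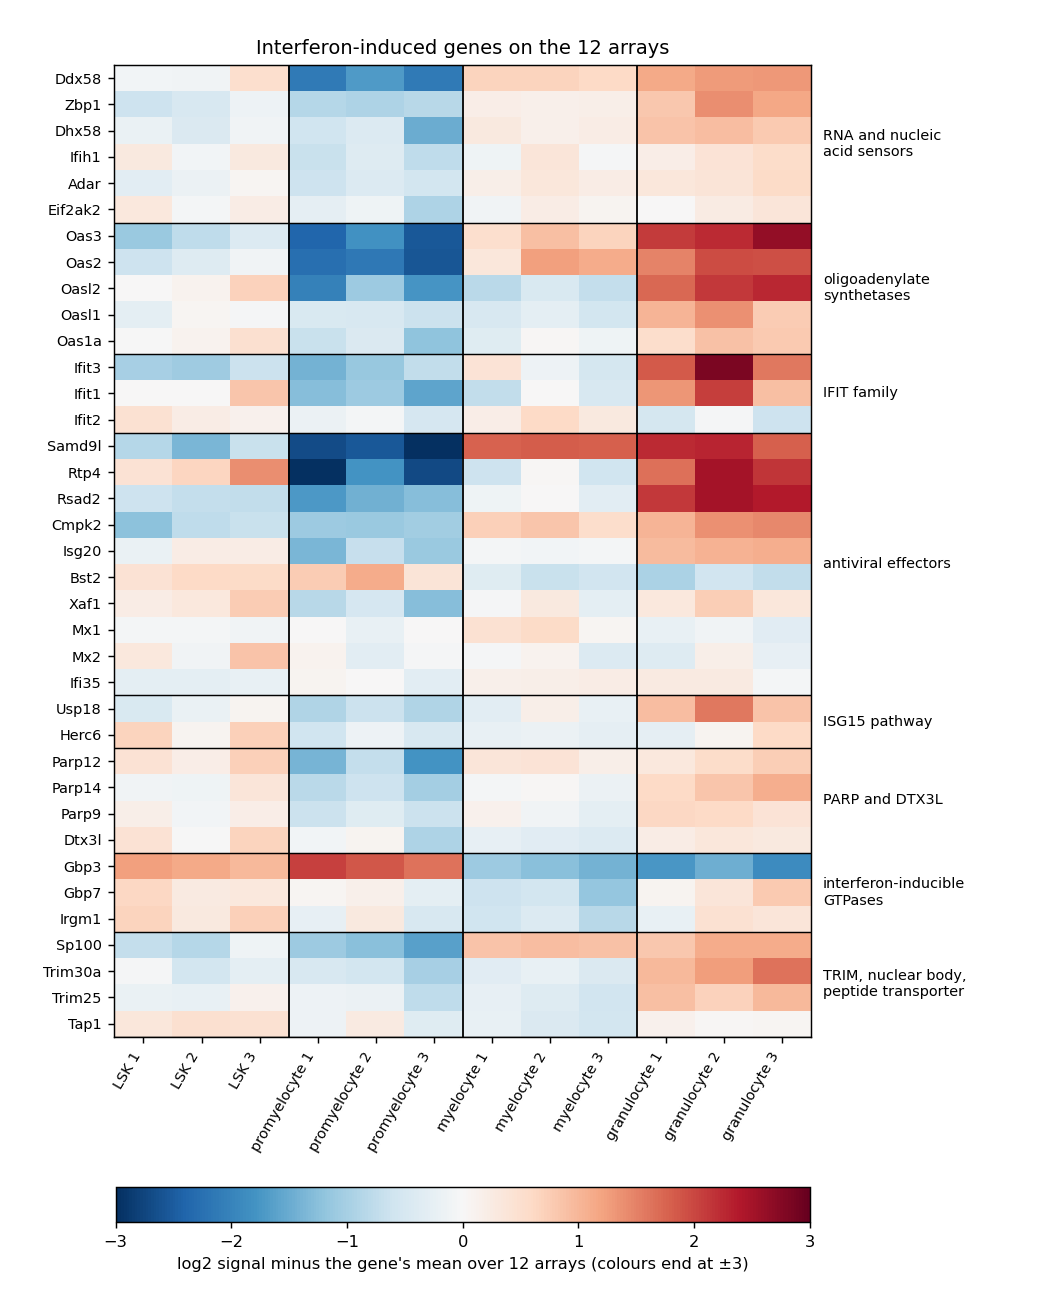
Colour gives the log2 signal of each measured member (rows, grouped by role) on each of the 12 arrays (columns, in stage order) minus its mean over the arrays. Most rows are blue in the 3 promyelocyte arrays and red in the 3 granulocyte arrays, while Gbp3 and Bst2 run the other way.

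In promyelocytes against LSK cells, 10 members were called lower (27.0%), where 2.75% of all genes were, and 0 were called higher, where 1.61% of all genes were. The count of 0 covers 1 member, Gbp3, that passed the adjusted p without reaching the fold. The median difference of the members was -0.64, against 0.04 for all genes, and 33 of 37 lay below 0. In 25 members all 3 promyelocyte arrays lay below all 3 LSK arrays, as they did for 12.9% of all genes. The 10 called lower were Rtp4, Ddx58, Samd9l, Oas2, Oasl2, Parp12, Ifit1, Oas3, Xaf1 and Isg20.

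In myelocytes against promyelocytes, 12 members were called higher (32.4%), where 7.61% of all genes were, and 2, Gbp3 and Bst2, were called lower (5.41%), where 9.87% of all genes were. The median difference was 0.69 for the members and 0.01 for all genes, and in 27 members all 3 myelocyte arrays lay above all 3 promyelocyte arrays, as they did for 21.5% of all genes. In granulocytes against myelocytes, again 12 members were called higher (32.4%), where 2.35% of all genes were, and 0 were called lower, where 5.96% were. Ifit2 and Mx1 passed the adjusted p in the lower direction without reaching the fold. The median of the members in this step was 0.63, against 0.09 for all genes, and 25 members had granulocyte arrays wholly above the myelocyte arrays (24.4% of all genes).

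Over the whole course from the promyelocyte, 23 members were called higher in granulocytes than in promyelocytes (62.2%), where 10.1% of all genes were, and 2 were called lower (5.41%), where 16.3% were. The arrays of the 2 stages did not overlap, with granulocytes higher, for 27 members (31.9% of all genes). In granulocytes against LSK cells, 16 were called higher (43.2%), where 9.59% of all genes were, and 2 lower, where 16.5% were, and granulocyte arrays lay wholly above LSK arrays for 23 (35.2% of all genes). These comparisons share arrays with each other, so their counts are not independent. In 7 members, Oas2, Oas3, Oasl2, Ifit1, Ddx58, Rtp4 and Samd9l, promyelocytes were called lower than LSK cells and granulocytes were called higher than LSK cells, as for 0.366% of all genes. The other 3 that were lower in promyelocytes, Isg20, Parp12 and Xaf1, were not called in granulocytes against LSK cells, with differences of 0.95, 0.08 and 0.03.

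**Figure D2:**
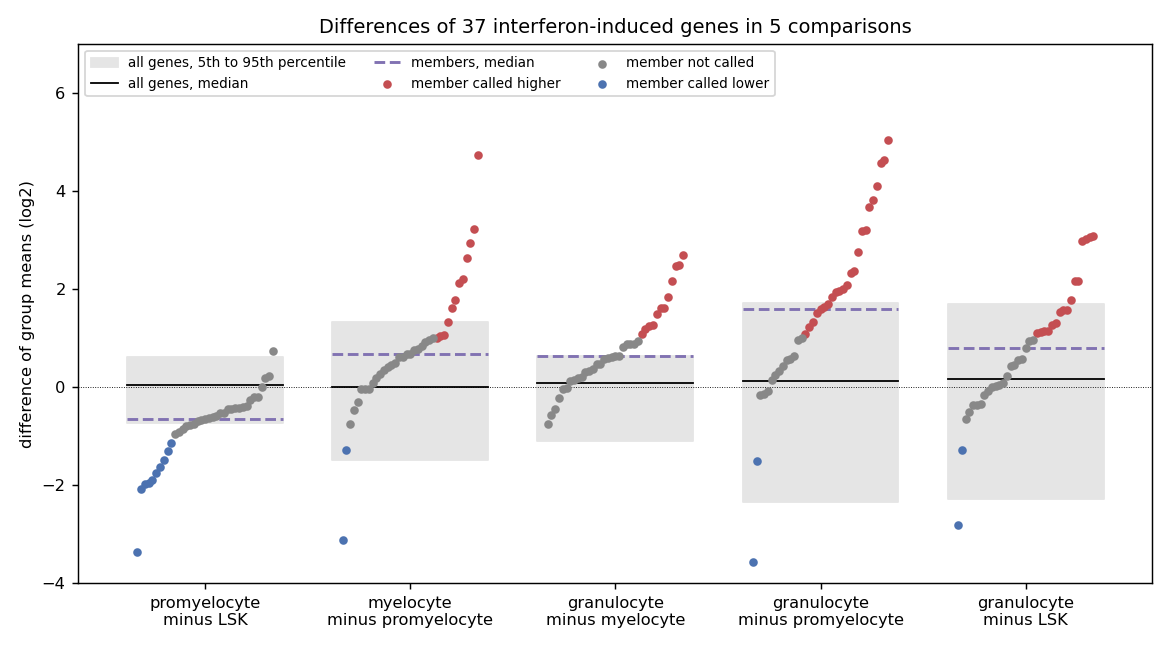
Each point is 1 of the 37 measured members, ordered by its difference of log2 group means within each of the 5 comparisons, in red where called higher, blue where called lower and grey where not called. Grey bands span the 5th to 95th percentile of all 19937 genes. The dashed member median lies below the all-gene median in promyelocytes minus LSK cells (-0.64) and above it in the other 4 comparisons (0.63 to 1.59).

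Oligoadenylate synthetases bind double-stranded RNA and make the short oligonucleotides that activate the nuclease RNase L. The 5 listed genes of this family include the synthetase-like Oasl1 and Oasl2, for which that activity is not implied here. All 5 were called higher in granulocytes than in promyelocytes, where 10.1% of all genes were. Oas2 had 6.33, 6.58 and 6.86 in LSK cells, 4.71, 4.82 and 4.39 in promyelocytes, 7.30, 8.20 and 8.08 in myelocytes and 8.45, 8.92 and 8.89 in granulocytes. No 2 stages overlapped on any array. Promyelocytes minus LSK cells gave -1.95 ± 0.23 (adjusted p = 5.1e-05), and myelocytes minus promyelocytes gave 3.22 ± 0.23 (9.34-fold, adjusted p = 2.047e-08). Oas3, its immediate neighbour in the genome, had 6.03, 6.37 and 6.73 in LSK cells, 4.76, 5.33 and 4.59 in promyelocytes, 7.65, 8.05 and 7.81 in myelocytes and 9.23, 9.37 and 9.78 in granulocytes. Its stages did not overlap either, and both later steps were called (2.94 ± 0.22 and 1.62 ± 0.22), so that granulocytes exceeded promyelocytes by 4.57 ± 0.22 (23.7-fold, adjusted p = 1.393e-10).

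Oasl1 and Oasl2, adjacent synthetase-like genes on the same chromosome as Oas2 and Oas3, rose after the promyelocyte mainly in the last step. Oasl2 had 7.28, 7.37 and 7.95 in LSK cells, 5.24, 6.17 and 5.50 in promyelocytes, 6.45, 6.81 and 6.55 in myelocytes and 9.00, 9.39 and 9.53 in granulocytes. Promyelocytes minus LSK cells gave -1.89 ± 0.23 for Oasl2 (3.72-fold, adjusted p = 8.127e-05), a called decrease before that rise. The granulocyte arrays stood above every other array, and granulocytes minus myelocytes gave 2.70 ± 0.23 (6.51-fold, adjusted p = 1.26e-06). Oasl1, a brake on Irf7 translation in mice, had 5.88, 5.86 and 5.68 in promyelocytes and 5.85, 6.04 and 5.78 in myelocytes, and these overlapped. In granulocytes it had 7.36, 7.71 and 7.10, against 6.05, 6.38 and 6.30 in LSK cells, and granulocytes minus myelocytes gave 1.50 ± 0.16 (adjusted p = 8.122e-06). Granulocytes minus LSK cells gave 1.15 for Oasl1, which was 0.99 and under the fold limit without granulocyte 2. Oas1a, the prototype synthetase, was not called in any single step (-0.96, 0.63 and 0.88) and was called in granulocytes minus promyelocytes (1.51 ± 0.20). Its mouse paralogs are closely similar, so signal shared between them is possible and was not tested.

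The IFIT proteins bind viral RNA that lacks the host cap mark and hold it from translation. Ifit3 had 3.80, 3.73 and 4.14 in LSK cells, 3.37, 3.66 and 4.06 in promyelocytes, 5.21, 4.63 and 4.26 in myelocytes and 6.62, 7.61 and 6.38 in granulocytes. The first 2 stages were dim and overlapped, and granulocytes stood apart from all others with 2.17 ± 0.29 over myelocytes (4.50-fold, adjusted p = 6.08e-05). Myelocytes minus promyelocytes was called at a measured 1.01 ± 0.29, but against the dim promyelocytes the bound was only at least 1.12-fold. The call was lost without promyelocyte 1 (0.84), without promyelocyte 2 (0.99) and without myelocyte 1 (0.75).

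Ifit1 had 5.26, 5.26 and 6.08 in LSK cells, 3.95, 4.14 and 3.65 in promyelocytes, 4.51, 5.24 and 4.76 in myelocytes and 6.57, 7.31 and 6.13 in granulocytes. Promyelocytes were dim on all 3 arrays and below every LSK array, by at least 1.99-fold (measured difference -1.62 ± 0.29, adjusted p = 0.001344). Granulocytes minus myelocytes gave 1.83 ± 0.29 (3.56-fold), and granulocytes minus LSK cells gave 1.14 ± 0.29, which was lost without LSK 1 (1.00, under the limit before rounding) and without granulocyte 2 (0.82). Ifit2, which adjoins Ifit3 with no coding gene between them, was called in none of the 5 comparisons. It had 6.66, 6.43 and 6.35 in LSK cells, 6.03, 6.16 and 5.70 in promyelocytes, 6.41, 6.81 and 6.51 in myelocytes and 5.69, 6.18 and 5.60 in granulocytes. Its granulocyte arrays thus lay below all 3 myelocyte arrays, with a difference of -0.75 ± 0.18 (adjusted p = 0.006729), opposite in sign to the values of Ifit1 and Ifit3.

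Among 6 sensors of RNA and nucleic acid, 1 was called lower in promyelocytes than in LSK cells, where 2.75% of all genes were, and 3 higher in myelocytes than in promyelocytes, where 7.61% were. Ddx58, which encodes the RNA sensor RIG-I, had 8.07, 8.04 and 8.65 in LSK cells, 6.02, 6.46 and 6.03 in promyelocytes, 8.82, 8.81 and 8.75 in myelocytes and 9.29, 9.42 and 9.44 in granulocytes. The promyelocyte arrays were far below every other array, by -2.08 ± 0.17 from LSK cells (4.24-fold, adjusted p = 4.575e-06), and myelocytes stood 2.63 ± 0.17 above promyelocytes (6.17-fold, adjusted p = 1.066e-08). Zbp1, a sensor of Z-form nucleic acid that triggers necroptosis, had 5.39, 5.53 and 5.87 in LSK cells, 5.17, 5.09 and 5.19 in promyelocytes, 6.21, 6.17 and 6.20 in myelocytes and 6.84, 7.42 and 7.17 in granulocytes. Its 4 stages did not overlap, and the steps after the promyelocyte gave 1.04 ± 0.16 and 0.95 ± 0.16, of which the first was called.

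Dhx58, encoding LGP2, a regulator of RIG-I and MDA5, had 6.64, 6.42 and 6.75 in LSK cells, 6.24, 6.43 and 5.36 in promyelocytes, 7.14, 6.99 and 7.08 in myelocytes and 7.71, 7.76 and 7.63 in granulocytes. Its call in myelocytes minus promyelocytes (1.06 ± 0.21) depended on promyelocyte 3, without which the difference was 0.73. The other 3 sensors moved less. Ifih1, which encodes MDA5, gave -0.77, 0.67 and 0.32 in the 3 steps, Eif2ak2, the kinase PKR that stops translation, gave -0.60, 0.50 and 0.14, and Adar, the editing enzyme that marks self RNA, gave -0.39, 0.78 and 0.20, and none reached the fold.

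Of 11 antiviral effectors 10 were measured, among them Samd9l, a restriction factor of poxviruses, which had the widest range of group means of the 37 measured members. Samd9l had 6.48, 5.97 and 6.66 in LSK cells, 4.64, 4.80 and 3.76 in promyelocytes, 9.11, 9.15 and 9.12 in myelocytes and 9.56, 9.63 and 9.12 in granulocytes. The promyelocyte mean was dim, though 2 of its arrays lay just above the dim level, and myelocytes stood at least 22.2-fold above it (measured difference 4.73 ± 0.24, adjusted p = 7.75e-10), whereas granulocytes and myelocytes overlapped and differed by 0.31 ± 0.24 (adjusted p = 0.4026). Rtp4, a chaperone of receptors and an inhibitor of flavivirus replication, had 7.67, 7.89 and 8.63 in LSK cells, 4.15, 5.43 and 4.53 in promyelocytes, 6.62, 7.26 and 6.64 in myelocytes and 8.89, 9.72 and 9.38 in granulocytes. It gave the lowest difference of any member in promyelocytes minus LSK cells (-3.36 ± 0.32, 10.3-fold, adjusted p = 1.038e-05), and both later steps were called, at 2.13 ± 0.32 and 2.49 ± 0.32.

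Rsad2, encoding viperin, which makes a chain-terminating nucleotide, had 5.73, 5.64 and 5.61 in LSK cells, 4.64, 4.92 and 5.08 in promyelocytes, 6.23, 6.36 and 6.05 in myelocytes and 8.48, 8.85 and 8.73 in granulocytes. No stages overlapped, and the steps after the promyelocyte were 1.34 ± 0.15 (2.53-fold) and 2.47 ± 0.15 (5.56-fold, adjusted p = 6.266e-08). Cmpk2, the neighbouring nucleotide kinase gene, had 6.14, 6.60 and 6.69 in LSK cells, 6.27, 6.25 and 6.31 in promyelocytes, 8.08, 8.20 and 7.89 in myelocytes and 8.39, 8.74 and 8.81 in granulocytes. It differed from Rsad2 in that LSK cells and promyelocytes overlapped, and its first later step was 1.78 ± 0.17 (3.43-fold, adjusted p = 4.208e-07) and its second 0.59 ± 0.17.

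Isg20, a 3′ to 5′ exonuclease, had 6.70, 7.13 and 7.13 in LSK cells, 5.54, 6.21 and 5.78 in promyelocytes, 6.85, 6.82 and 6.85 in myelocytes and 7.86, 7.94 and 7.99 in granulocytes. Myelocytes lay within the range of LSK cells and granulocytes above it. The difference of promyelocytes from LSK cells was -1.14 ± 0.17, or -0.99 and under the fold limit without promyelocyte 1, and the last step gave 1.10 ± 0.17 (2.14-fold). Xaf1, a partner of the apoptosis inhibitor XIAP, was called lower in promyelocytes than in LSK cells (-1.30 ± 0.22) and higher in granulocytes than in promyelocytes (1.33 ± 0.22).

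Bst2, the tetherin that holds budding virions at the cell surface, ran against the other effectors. It had 7.51, 7.67 and 7.64 in LSK cells, 7.84, 8.19 and 7.46 in promyelocytes, 6.71, 6.41 and 6.50 in myelocytes and 6.12, 6.51 and 6.34 in granulocytes. All 6 arrays of the first 2 stages lay above all 6 of the later ones, and myelocytes minus promyelocytes gave -1.29 ± 0.18 (2.44-fold, adjusted p = 2.422e-05). Mx1 and Mx2, dynamin-like antiviral GTPases, stayed near the dim level, with Mx1 between 4.00 and 4.91 and Mx2 between 3.43 and 4.70 over the 12 arrays, and Ifi35 gave differences of 0.19, 0.26 and -0.02 in the 3 steps. None of these 3 was called in any comparison.

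**Figure D3:**
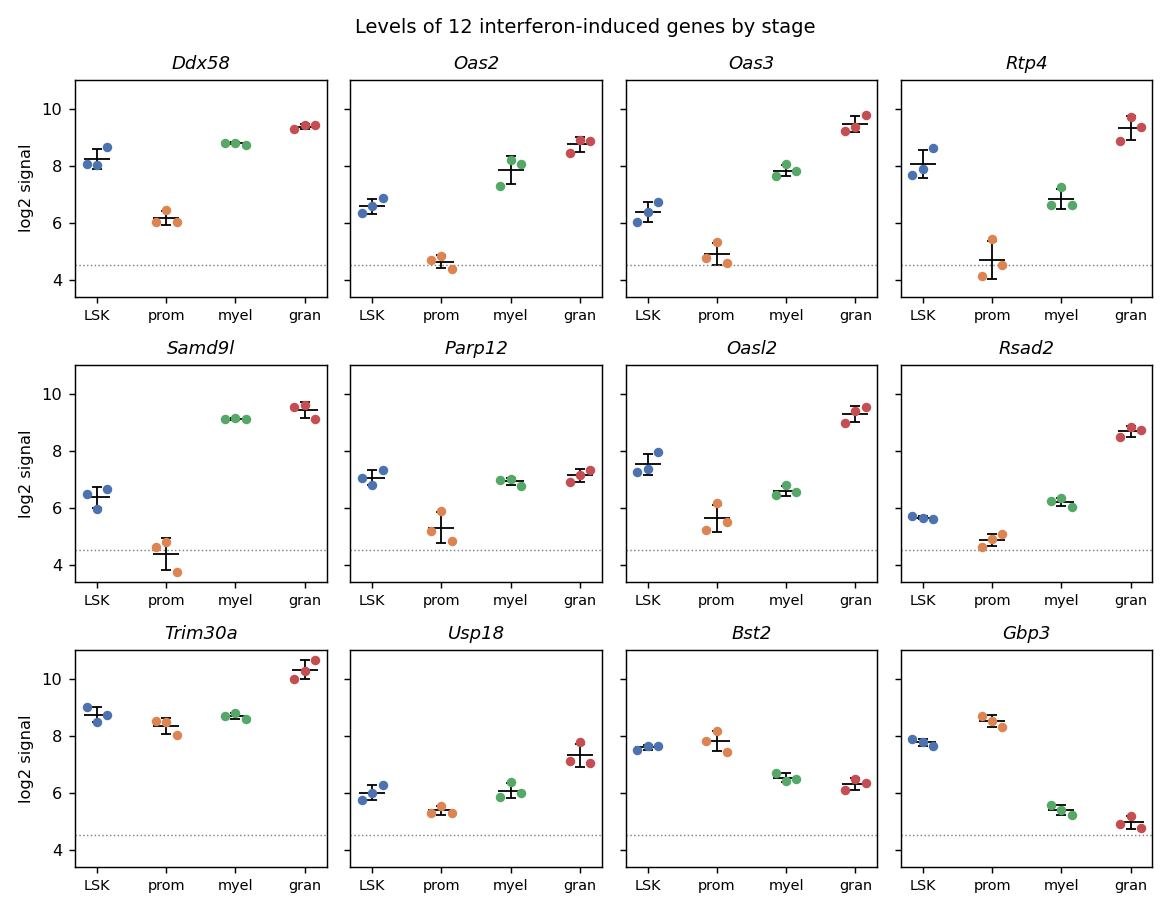
Points give the log2 signal on each array for 12 members in the 4 stages (prom, promyelocyte; myel, myelocyte; gran, granulocyte), bars give the mean ± SD of 3 arrays and the dotted line the dim level of 4.54. The myelocyte and granulocyte arrays of Samd9l overlap, whereas the granulocyte arrays of Oasl2 stand above all its others and those of Gbp3 and Bst2 lie below their LSK and promyelocyte arrays.

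Of the ISG15 pathway, which attaches the ubiquitin-like protein ISG15 to targets, Usp18 and Herc6 were measured. Usp18, the protease that removes ISG15 and also blocks the type I receptor, had 5.76, 6.01 and 6.28 in LSK cells, 5.31, 5.56 and 5.31 in promyelocytes, 5.88, 6.38 and 5.99 in myelocytes and 7.13, 7.80 and 7.07 in granulocytes. LSK cells and myelocytes overlapped, promyelocytes lay below both, and granulocytes minus myelocytes gave 1.25 ± 0.20 (2.38-fold, adjusted p = 0.0003126). Herc6, the main ISG15 ligase of mice, gave -0.91 in promyelocytes minus LSK cells and was not called in any comparison.

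The ADP-ribosyltransferases Parp9, Parp12 and Parp14 and the ubiquitin ligase Dtx3l, the partner of Parp9, include 3 genes that lie together, Parp14, Dtx3l and Parp9. Parp12, which lies elsewhere, had 7.05, 6.81 and 7.33 in LSK cells, 5.21, 5.90 and 4.83 in promyelocytes, 6.98, 7.03 and 6.79 in myelocytes and 6.92, 7.16 and 7.35 in granulocytes. It was low in promyelocytes (-1.75 ± 0.23 from LSK cells, adjusted p = 0.0001139), and the other 3 stages overlapped. Parp14 had 7.46, 7.44 and 7.94 in LSK cells, 6.77, 6.96 and 6.56 in promyelocytes, 7.52, 7.62 and 7.41 in myelocytes and 8.17, 8.40 and 8.66 in granulocytes. Its steps of -0.85, 0.76 and 0.89 were each under the fold limit, and granulocytes minus promyelocytes gave 1.65 ± 0.17 (adjusted p = 7.368e-07). Parp9 gave 1.09 ± 0.15 in that comparison, and Dtx3l, at 0.58 ± 0.23, was not called.

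Sp100, a scaffold of the nuclear bodies that silence incoming viral DNA, had 8.67, 8.53 and 9.26 in LSK cells, 8.30, 8.14 and 7.77 in promyelocytes, 10.25, 10.31 and 10.27 in myelocytes and 10.21, 10.50 and 10.50 in granulocytes. Myelocytes and granulocytes overlapped, and the change lay in the step before, at 2.20 ± 0.19 (4.61-fold, adjusted p = 1.708e-07). Trim30a, a restrainer of Toll-like receptor signalling, had 9.01, 8.50 and 8.76 in LSK cells, 8.55, 8.50 and 8.05 in promyelocytes, 8.71, 8.83 and 8.60 in myelocytes and 10.01, 10.30 and 10.68 in granulocytes. The granulocyte arrays alone stood apart, by 1.62 ± 0.19 from myelocytes (3.07-fold, adjusted p = 1.751e-05). Trim25, the ubiquitin ligase that activates RIG-I, likewise was called in the last step (1.27 ± 0.18). Tap1, the peptide transporter of class I antigen presentation, gave -0.52, -0.31 and 0.46 and was not called.

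The interferon-inducible GTPases, which attack the vacuoles of intracellular pathogens, had 3 of 7 listed genes measured. Of these, 1, Gbp3, was called lower in myelocytes than in promyelocytes, where 9.87% of all genes were. Another 1, Gbp7, was called higher in granulocytes than in myelocytes, where 2.35% of all genes were. Gbp3 had 7.91, 7.80 and 7.65 in LSK cells, 8.72, 8.54 and 8.31 in promyelocytes, 5.59, 5.41 and 5.25 in myelocytes and 4.92, 5.21 and 4.78 in granulocytes. It was highest in promyelocytes, where most members were lowest, and myelocytes minus promyelocytes gave -3.11 ± 0.16 (8.61-fold, adjusted p = 7.75e-10). Gbp7, which adjoins it, had 8.36, 8.01 and 8.05 in LSK cells, 7.79, 7.89 and 7.45 in promyelocytes, 7.11, 7.18 and 6.58 in myelocytes and 7.82, 8.10 and 8.52 in granulocytes. Myelocytes were lowest for Gbp7, and granulocytes minus myelocytes gave 1.19 ± 0.20 (2.28-fold, adjusted p = 0.000478). Irgm1, a regulator of the immunity-related GTPases, also had its lowest mean in myelocytes, with steps of -0.70, -0.47 and 0.81, and was not called. The Gbp and Irgm genes have close paralogs, and the part of shared signal was not tested.

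The members that were higher after the promyelocyte fell into groups by step. Both steps were called higher for 4 members, Oas3, Ifit3, Rsad2 and Rtp4, as for 0.983% of all genes, the first alone for 8, as for 6.63% of all genes, and the second alone for 8, as for 1.37%. Since passing in 1 step and not in the other does not show a difference, the difference between the steps (myelocytes minus promyelocytes, minus granulocytes minus myelocytes) was tested in the same fit, a test added after the values were seen. The first step exceeded the second for 9 members, where 8.95% of all genes did: Samd9l (4.42 ± 0.42, adjusted p = 3.151e-06), Oas2 (2.33), Sp100 (2.08), Ddx58 (2.04), Parp12 (1.41), Ifit2 (1.37), Oas3 (1.32), Cmpk2 (1.19) and Mx1 (0.99). Among them, Ifit2 and Mx1 were called in no comparison and had second steps below 0 (-0.75 and -0.57), and Mx1 was dim in every group but myelocytes. The second exceeded the first for 9, where 7.09% of all genes did. Of these, Gbp3 (-2.66 ± 0.28, adjusted p = 7.556e-06) and Bst2 (-1.07) were called lower in the first step and not called in the second. Gbp7 (-1.95), Trim25 (-1.31) and Irgm1 (-1.28) had first steps below 0 (-0.75, -0.04 and -0.47, none called) and second steps above 0, whereas Oasl2 (-1.74), Oasl1 (-1.42), Trim30a (-1.27) and Rsad2 (-1.14) were above 0 in both steps. For Ifit1, Ifit3, Rtp4, Isg20, Usp18, Zbp1 and Dhx58 the steps were not called different (adjusted p between 0.1582 and 0.8991). These counts depended on single myelocyte arrays: without myelocyte 2 the first count was 4, and without myelocyte 3 the second was 4.

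**Figure D4:**
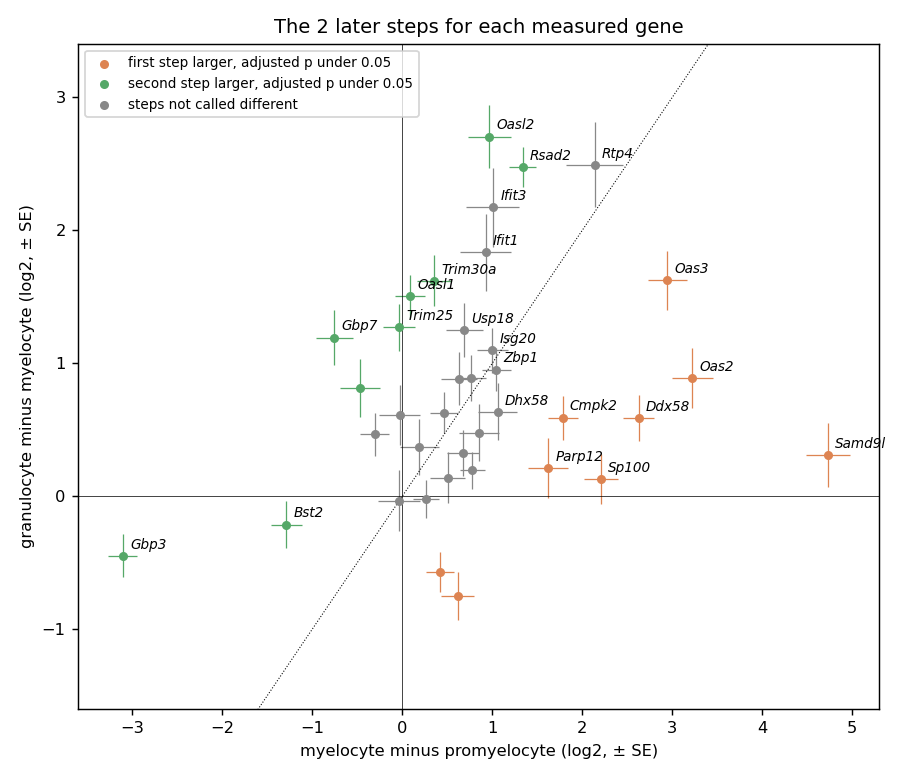
Each measured member is placed by its difference in myelocytes minus promyelocytes (x) and granulocytes minus myelocytes (y), in log2 units with standard errors, and the dotted line marks equal steps. Samd9l, Oas2, Oas3, Ddx58, Cmpk2, Parp12 and Sp100 lie to the right of the line, Oasl2, Rsad2, Trim30a, Oasl1, Trim25 and Gbp7 above it, and Gbp3 and Bst2 at the left.

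Genes that build the interferon pathway were followed from fixed lists. The shares of all genes called in each comparison, given above for the members, apply to these lists and to the cell marker lists below. Of 8 signalling transcription factors 7 were measured, 2 were called lower in promyelocytes than in LSK cells, 3 higher in myelocytes than in promyelocytes, 2 higher in granulocytes than in myelocytes and 0 in the opposite directions. Irf7, the factor that amplifies type I interferon, had 6.75, 6.96 and 7.21 in LSK cells, 4.81, 5.46 and 4.73 in promyelocytes, 7.76, 7.71 and 7.31 in myelocytes and 8.55, 8.79 and 9.19 in granulocytes. Its stages did not overlap, with -1.97 ± 0.22, 2.59 ± 0.22 and 1.25 ± 0.22 in the 3 steps, all called. Irf2, an antagonist of Irf1, had 8.45, 8.09 and 8.65 in LSK cells, 7.29, 6.93 and 7.11 in promyelocytes, 8.73, 8.64 and 8.74 in myelocytes and 9.42, 9.09 and 9.31 in granulocytes, and was called in the first 2 steps (-1.28 and 1.59). Irf9, the DNA-binding part of the ISRE complex, was called in myelocytes minus promyelocytes (1.04 ± 0.19), and Irf5 in the last step (1.02 ± 0.27). Stat2 (1.05) and Irf1 (1.43) were called higher in granulocytes than in promyelocytes, and Irf3 was not called in any comparison.

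The 8 receptor and kinase genes had 0 calls in promyelocytes against LSK cells and 0 in granulocytes against myelocytes, and 2 higher in myelocytes than in promyelocytes, the kinase gene Jak1 (1.12 ± 0.14) and Il10rb (1.09 ± 0.18), a subunit of the lambda interferon receptor. Without reaching the fold, Ifngr1 (0.98) and Ifngr2 (0.96) passed the adjusted p higher in promyelocytes than in LSK cells, and Jak1 (-0.83) lower. In granulocytes against myelocytes Ifnar1 (0.85), Ifngr2 (0.98), Il10rb (0.57) and Jak1 (0.66) did so in the higher direction. In granulocytes against promyelocytes 4 of the 8 were called higher, among them Ifnar1 (1.11 ± 0.17) and Ifngr2 (1.69 ± 0.13), and 0 lower. Of 11 interferon genes 9 were measured and 0 were called in any of the 5 comparisons. Ifnb1, Ifna4, Ifna11, Ifne and Ifnk were dim in every group. Ifna2 (group means 4.63 to 5.22), Ifna5 (5.90 to 6.24) and Ifnl2 (6.21 to 6.64) lay above the dim level in every group. Ifng did so only in granulocytes (4.61). With no fold minimum, Ifng passed in granulocytes minus promyelocytes (measured difference 0.63 ± 0.15, adjusted p = 0.002434) against dim promyelocytes, a bound of at least 1.06-fold, and Ifng, Ifna4 and Ifne passed in granulocytes minus LSK cells, the last 2 being dim in both groups. Ifnb1 lay between 3.07 and 4.25 on the 12 arrays.

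Of the 9 measured sensing adaptors, receptors and kinases, Tlr7, the endosomal receptor of single-stranded RNA, had 5.08, 4.81 and 5.64 in LSK cells, 3.65, 3.45 and 3.57 in promyelocytes, 7.27, 7.33 and 6.90 in myelocytes and 6.56, 7.20 and 6.63 in granulocytes. Promyelocytes were dim on all 3 arrays and below every other array, by at least 1.56-fold from LSK cells (measured difference -1.62 ± 0.21), and myelocytes stood at least 6.19-fold above them (measured difference 3.61 ± 0.21). The adaptor gene Myd88 was called higher in myelocytes than in promyelocytes (1.30), whereas Mavs, the mitochondrial adaptor of RIG-I, was called lower (-1.65 ± 0.21), opposite in sign to Ddx58. Unc93b1, which carries Toll-like receptors to endosomes, was called higher in promyelocytes than in LSK cells (1.09), and the kinase gene Ikbke was called lower in granulocytes than in myelocytes (-1.35). Of 7 feedback inhibitors, Socs3 was called lower in promyelocytes than in LSK cells (-1.87) and higher in granulocytes than in myelocytes (1.96), and Ptpn6 (1.34) and Pias3 (1.64) were called higher in myelocytes than in promyelocytes. Of 8 class I antigen processing genes, 3 were called lower in myelocytes than in promyelocytes, the immunoproteasome genes Psmb8 (-1.23) and Psmb10 (-1.45) and the trimming peptidase gene Erap1 (-1.24), and 0 higher. Erap1 was also called lower in the last step (-1.02).

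**Figure D5:**
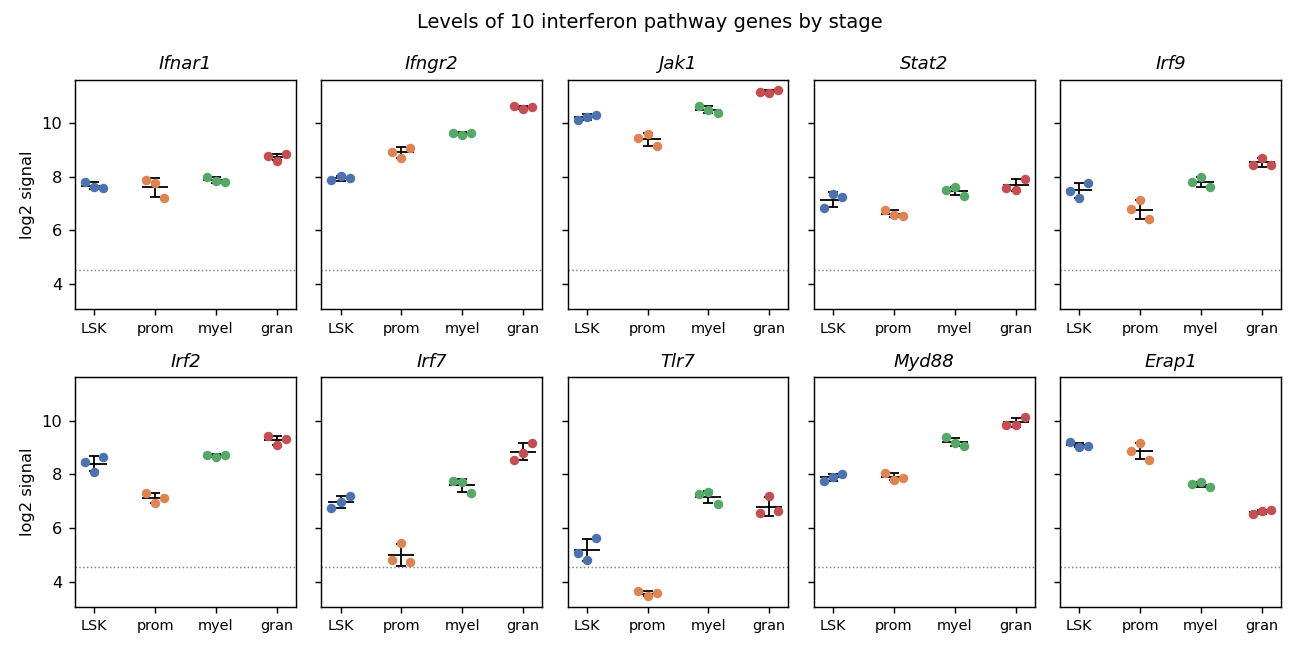
Points give the log2 signal on each array for 10 genes of the interferon pathway in the 4 stages (prom, promyelocyte; myel, myelocyte; gran, granulocyte), bars give the mean ± SD of 3 arrays and the dotted line the dim level. Irf7, Irf2, Irf9, Stat2 and Tlr7 were lowest in promyelocytes, while Erap1 was lowest in granulocytes.

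Markers of other cells moved with some stages. Of the 7 eosinophil markers, 5 were called higher in promyelocytes than in LSK cells, and their summed log2 signal was 8.90 to 12.57 in promyelocytes, against 7.64 to 7.93 in LSK cells. Eosinophil peroxidase, Epx, was 9.81 and 10.19 in promyelocytes 1 and 3 and 5.06 in promyelocyte 2. Without promyelocytes 1 and 3, an alternative added after the data were seen that rests on 1 promyelocyte array assumed to vary like the other groups, 6 members were called lower than in LSK cells in place of 10. Oas3 (-1.04) and Ifit1 (-1.40) kept the measured fold but not the adjusted p, and Isg20 (-0.78) and Xaf1 (-0.93) were under the fold. Promyelocyte 2 was dim for Ifit1 (4.14), and against dim promyelocytes the bound for Ifit1 was only at least 1.99-fold. Against that array 10 members were called higher in myelocytes, Ifit3 (1.04) and Dhx58 (0.63) no longer being called, and 21 in granulocytes, without Parp9 (0.89) and Xaf1 (0.95). Of 8 basophil and mast cell markers, 6 were called higher in promyelocytes than in LSK cells, 4 higher in myelocytes than in promyelocytes and 6 lower in granulocytes than in myelocytes. The part of these cells, and of those that follow, in the results was not tested.

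Plasmacytoid dendritic cells are strong producers of type I interferon, and their 9 measured markers summed to 8.27 to 8.52 in promyelocytes, against 10.05 to 10.29 in LSK cells, with 2 called lower and 0 higher. The 2 were Dntt, with means of 9.29 in LSK cells and 3.95 in promyelocytes, and Ccr9 (5.07 and 3.82). Dntt had the highest LSK mean of the 9, followed by Tcf4 (8.07), so the LSK sum rested largely on these genes. In myelocytes the sum was 8.13 to 8.26 and in granulocytes 8.24 to 8.38. Siglech, which defines these cells, lay between 3.94 and 4.93 on the 12 arrays. Of 12 monocyte and macrophage markers, 7 were called higher in promyelocytes than in LSK cells, where most members were lower, with sums of 12.07 to 12.79 in promyelocytes and 9.63 to 10.84 in LSK cells. In granulocytes against myelocytes 3 of these were called higher and 5 lower. Of 9 B cell markers 4 were called lower in promyelocytes than in LSK cells and 0 higher, and of 10 T and NK cell markers 1 was called in each direction.

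Within a stage, single arrays were highest or lowest for many members at once. LSK 3 was the highest of its group for 26 of 37 members, promyelocyte 2 for 25, myelocyte 2 for 25 and granulocyte 2 for 20, while promyelocyte 3 and granulocyte 1 were each the lowest of their group for 24. LSK 3 was also the LSK array with the least signal of the promyelocyte marker genes, and the part of this in the results was not tested. The mean over the members, each centred on its own mean, was -0.81, -0.58 and -1.02 in the promyelocyte arrays, against -0.05, -0.11 and 0.22 in the LSK arrays, and it was -0.02, 0.12 and -0.11 in myelocytes and 0.63, 0.94 and 0.81 in granulocytes. Only LSK cells and myelocytes overlapped on this mean. The largest standard deviation among promyelocyte arrays was that of Rtp4 (0.66), and the median over the members was 0.25 there, against 0.21 over all genes.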

How the data were processed

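Total RNA of the 12 sorted samples had been labelled and hybridized by the authors to 1-colour Affymetrix Gene 1.0 ST mouse arrays. The deposited values are log2 signals that the authors made with justRMA (background correction, quantile normalization and probe summary; its version is not given in the sources used here), and no further normalization was applied. Array medians lay between 4.96 and 5.12. Of 34760 rows, 21640 with 1 gene symbol were used, 1321 with several symbols and 11799 with none were not, and the row with the highest mean was taken per gene, which left 19937 genes. Groups came from the labels. They were fitted with limma 3.58.1 in R 4.3.3 as 4 group means over all 12 arrays, with Benjamini-Hochberg adjustment over all genes. The median residual SD was 0.21, with 8 residual and 7.02 prior degrees of freedom, and precision is limited by the number of arrays. The fit was tested on simulated data with known changes. Values on every array are given for the 20 members with the largest range of group means and for Ifit2, Bst2, Gbp7 and pathway genes singled out after their values were seen. Promoters of chromosome 18 were not used here. The members and lists were chosen with earlier results of these data known. Alternatives were median and 75th percentile centring, repeated quantile normalization, a filter on dim genes, the mean of a gene's rows, the unadjusted p, no fold minimum, an intensity trend, fits of only the groups compared, a replicate block and each array left out. All 3 same-numbered pairs correlated over 0.1 only between promyelocytes and myelocytes (0.12 to 0.20 over all genes), and no label states a pairing.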

Additional observations from a re-analysis of the deposited data

How the results depend on the processing

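No difference of a member that had been called changed sign under any alternative. Without a fold minimum, the members called were 1 higher and 19 lower in promyelocytes minus LSK cells, 24 higher and 3 lower in myelocytes minus promyelocytes, and 21 higher and 2 lower in granulocytes minus myelocytes. By the adjusted p alone, 5.79% of all genes were higher and 7.22% lower in the first of these, 15.6% and 19.1% in the second and 8.07% and 13.9% in the third. With quantile normalization repeated, 1 member in place of 2 was lower in granulocytes minus LSK cells, Bst2 dropping to -0.92, and Ddx58 lost its call there (0.86), as did Ifit3 in myelocytes minus promyelocytes (0.98). With median centring, Ifit3 (0.93), Dhx58 (0.98) and Zbp1 (0.97) lost their call in myelocytes minus promyelocytes and Parp9 (1.00) in granulocytes minus promyelocytes. With promyelocytes 1 and 3 left out together, 6 members were lower in promyelocytes minus LSK cells. With single arrays left out, this count was 10 to 12, the members higher in myelocytes minus promyelocytes were 11 to 15, in granulocytes minus myelocytes 12 to 16, in granulocytes minus promyelocytes 23 to 25 and in granulocytes minus LSK cells 15 to 18, members called the other way were 0, 2, 0, 2 and 2 throughout, and 33 to 36 members differed among stages.

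Centring on the 75th percentile moved the median of all genes to 0.25 in granulocytes minus myelocytes (0.09 as deposited), 0.36 in granulocytes minus promyelocytes (0.13) and 0.39 in granulocytes minus LSK cells (0.17), while the medians of the members were 0.79, 1.81 and 1.01. It moved the share of called genes that were higher in granulocytes minus myelocytes to 41.7%, against 28.3% as deposited.

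The replicate number as a block left every count as it was: 0 higher and 10 lower in promyelocytes minus LSK cells, 12 and 2 in myelocytes minus promyelocytes, 12 and 0 in granulocytes minus myelocytes, 23 and 2 in granulocytes minus promyelocytes, 16 and 2 in granulocytes minus LSK cells, and 36 differing among stages. Of 18 same-numbered pairs 7 correlated over 0.1, against 4 of 36 differently numbered pairs, and 6 of 12 arrays correlated best with an array of their own number. All 3 same-numbered pairs of promyelocytes and myelocytes correlated over 0.1 (0.12 to 0.20), whereas in each other pair of stages at least 1 of 3 did not. Differently numbered pairs reached 0.29, and same-numbered pairs went down to -0.25, both between LSK cells and promyelocytes. Between promyelocytes and myelocytes, the differently numbered pairs ran from -0.16 to 0.02. No label states a pairing, and these small correlations do not settle whether the numbers paired any stages.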

Other observations

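Outside the listed members, the 10 genes whose signal over the 12 arrays followed the mean profile of the measured members most closely were Slfn5, Tab2, Zmynd11, Irf9, Sh3glb1, Carns1, Jak1, Irf7, Ctse and Trim34a, picked for that likeness and therefore given as a description. The 12 arrays share their stage, so the likeness is mostly one of the 4 group means. Slfn5, of the Schlafen family, averaged 5.69 in LSK cells, 4.11 in promyelocytes, 5.91 in myelocytes and 7.51 in granulocytes. Ctse, which encodes the protease cathepsin E, averaged 7.21, 5.96, 7.04 and 9.16 in the same stages. Among the members themselves, Gbp3 and Bst2 ran against the mean of the other members.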
